A study of Mus musculus with 2 samples.

Results

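Mir127 and its neighbours are microRNA (miRNA) genes of the imprinted Dlk1-Dio3 region of mouse chromosome 12, on the stretch between the long non-coding RNA Meg3 and the distal Mir379 cluster. The 10 genes Mir337, Mir540, Mir665, Mir431, Mir433, Mir127, Mir434, Mir136, Mir341 and Mir370 were chosen by symbol and position, out of 2202 annotated miRNA genes in the count tables. They were measured by small RNA sequencing of adrenal gland tissue of male B6CASTF1/J mice aged 2 months, first-generation hybrids of a laboratory strain and a castaneus strain, with no treatment given in the labels. The series holds 1 group of 2 libraries, replicate 1 from animal 3 and replicate 2 from animal 4, which the labels number as separate animals under 1 donor entry. There is no contrast between conditions, so levels were described and the libraries were compared with each other. The labels name no part of the gland, so a level in cortex cannot be told apart from one in medulla or vessels, and fewer cells of a type cannot be told apart from less RNA per cell.

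A miRNA is cut from a hairpin in a longer transcript, and either arm of the hairpin (5p or 3p) can be kept as a mature strand that pairs with target RNAs, mainly through its seed, bases 2 to 8. The miRNAs of the Dlk1-Dio3 region are expressed from the maternal chromosome together with the non-coding RNAs Meg3, Rian and Mirg, while the protein-coding genes Dlk1 and Rtl1 are expressed from the paternal one. Rtl1 is a coding gene derived from a retrotransposon, best known in the mouse for its part in the vessels of the placenta. Several miRNA hairpins lie inside Rtl1 on the other strand, and their mature strands pair with its mRNA without mismatch.

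The 10 genes form 3 positional groups over 32.5 kb (mm10, GENCODE M21), all on the plus strand. Mir337, Mir540 and Mir665 lie between Meg3 and Rtl1. The hairpins of Mir431, Mir433, Mir127, Mir434 and Mir136 lie within 4.94 kb, on the strand opposite to Rtl1 and inside its coding exon. Mir341 and Mir370 lie in introns of Rian, a host transcript of small nucleolar RNAs. The next listed cluster begins with Mir379, 90.7 kb downstream of Mir370. Mir127 itself is at chr12:109592846-109592915, and Rtl1 spans chr12:109589193-109600330 on the minus strand.

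All 10 genes had a hairpin and mature sequences in the RefSeq table (GRCm38.p6), 20 mature sequences in all, and the hairpins matched those of GENCODE M21 base for base. The sequences of the Rtl1 group are shown because their pairing with Rtl1 sets them apart from the other members, and those of Mir337 and Mir341 because their counts are described in detail below. Seeds are in capitals.
miR-431-5p: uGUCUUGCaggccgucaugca
miR-431-3p: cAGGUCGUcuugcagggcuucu
miR-433-5p: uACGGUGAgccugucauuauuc
miR-433-3p: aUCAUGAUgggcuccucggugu
miR-127-5p: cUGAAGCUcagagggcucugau
miR-127-3p: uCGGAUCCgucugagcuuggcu
miR-434-5p: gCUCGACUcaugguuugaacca
miR-434-3p: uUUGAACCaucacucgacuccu
miR-136-5p: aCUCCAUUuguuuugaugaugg
miR-136-3p: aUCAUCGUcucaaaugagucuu
miR-337-5p: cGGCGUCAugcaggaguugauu
miR-337-3p: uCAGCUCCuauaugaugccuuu
miR-341-5p: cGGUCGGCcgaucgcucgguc
miR-341-3p: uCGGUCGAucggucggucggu

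The members do not form a seed family. Their 20 mature sequences carry 20 distinct seeds, and 18 of these occur in no other mouse miRNA gene of the table. The exceptions are the seed of miR-540-3p, shared with miR-6915-5p, and that of miR-370-5p, shared with miR-1193-3p. All 10 mature sequences of the Rtl1 group were exact reverse complements of stretches of the Rtl1 coding sequence of 5232 bases, and none of the other 10 matched the Rtl1 transcript. Counted from the first coding base of Rtl1, the sites began at base 17 for miR-136-3p, base 818 for miR-434-3p, base 2495 for miR-127-3p, base 3602 for miR-433-3p and base 4881 for miR-431-3p. The site of miR-127-3p in Rtl1 and the whole Mir127 hairpin, with both mature arms in capitals, show the pair.
Rtl1 site, sense strand: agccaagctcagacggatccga
Mir127 hairpin: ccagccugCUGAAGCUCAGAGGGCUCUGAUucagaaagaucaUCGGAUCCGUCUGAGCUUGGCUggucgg

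No member hairpin shared 18 bases with another counted miRNA gene, and no mature sequence occurred in the transcript of another gene on the same strand. The counts leave out reads with more than 1 alignment, and this search of annotated transcripts found no other one on the same strand that holds a member's mature sequence. In the Mir379 to Mir410 cluster, 7 of 43 hairpins shared 18 bases with another counted gene. The hairpins were 62 to 124 bases long, with 40.3% to 61.2% G and C. The longest run common to both arms of a hairpin was 10 bases in Mir431 and 9 in Mir434, against 4 to 7 in the other members.

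Replicate 1 held 5752428 reads counted at miRNA genes and replicate 2 held 3333149. Levels are given as CPM, counts scaled to a total of 1000000 at miRNA genes. A read spans a whole mature miRNA, so counts were not divided by length, and arms were not separated in the tables. The limit set by a count of 0 was 0.522 CPM in replicate 1 and 0.900 in replicate 2. Among miRNA markers set for cell types, those of endothelium (Mir126a) and of neuroendocrine cells (4 of 4 genes) were detected. Those of steroid-producing cells (3 of 3) were also detected, at 1461 CPM in sum in replicate 1 and 1550 in replicate 2. Mir132 made up most of this, while Mir212 had 36.7 and 87.6 CPM and Mir202 had 8.69 and 13.2. The smooth muscle and mesenchyme list (2 of 2) summed to 32758.5 CPM in replicate 1 and 33318 in replicate 2. Of 7 neuronal markers, Mir137 was detected, at 405 CPM in replicate 1 and 530 in replicate 2. A further 5, all of them copied genes whose reads can align to several places, were at 0 in both libraries. Protein-coding markers of cortex or medulla are not measured in small RNA. The libraries differed most in the erythroid list (3 of 3 genes detected), which summed to 22813 CPM in replicate 1 and 901 in replicate 2. The neuroendocrine list summed to 72802 CPM in replicate 1 and 51447 in replicate 2. Mir375 made up most of it, at 68780 and 46236 CPM. Mir7-2 was also higher in replicate 1, while Mir7-1 and Mir7b were lower there. The hepatocyte list, 1 gene, stood at 690 CPM in replicate 1 and 1331 in replicate 2. The heart and skeletal muscle list (3 of 8 genes detected) summed to 719 and 454 CPM, but its genes went opposite ways. Mir499 had 423 CPM in replicate 1 and 23.1 in replicate 2, Mir208b had 204 and 40.8, and Mir206 had 81.7 and 389. The white blood cell list (3 of 3) summed to 1116 CPM in replicate 1 and 1451 in replicate 2, with Mir223 at 36.7 and 159 CPM. The part of these cells in the differences between the libraries was not tested, beyond leaving the erythroid list out of the scaling, given below.

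All 10 genes were detected, taken as 2 CPM or more in both libraries, against 372 of all 2202 annotated genes. Together they held 2.52% of the miRNA counts in replicate 1 and 2.50% in replicate 2, a sum of 25119 ± 129 CPM (mean ± SD, n = 2). The Rtl1 group supplied nearly all of it, with 89.3% of the members' counts in replicate 1 and 87.9% in replicate 2. The group between Meg3 and Rtl1 followed with 8.35% and 10.2%, and the Rian group with 2.31% and 1.84%.

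**Figure D1:**
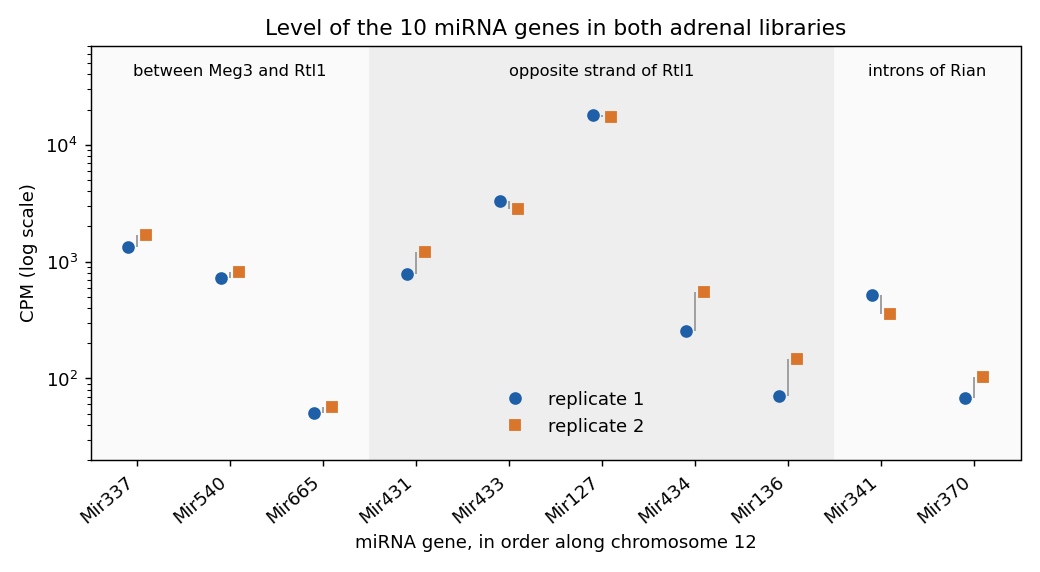
CPM on a log axis for each of the 10 genes in order along chromosome 12, with replicate 1 as circles and replicate 2 as squares joined by a line. Mir127 lies above all other members in both libraries. Mir434 and Mir136, downstream of it, are more than 30-fold lower and have the widest gaps between the libraries.

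Mir127, whose miRNAs pair with the middle of the Rtl1 coding sequence, stood at 18104 CPM in replicate 1 and 17288 in replicate 2 (17696 ± 577, SD, n = 2). The 95% Clopper-Pearson intervals were 17995 to 18214 CPM and 17148 to 17428 CPM, and like all intervals here they cover counting error only, since several reads can come from 1 molecule. It ranked 14th among all miRNA genes in replicate 1 and 15th in replicate 2. Mir127 alone made up 71.8% of the members' counts in replicate 1 and 69.1% in replicate 2. It exceeded the lowest member, Mir665, 360-fold in replicate 1 and 305-fold in replicate 2.

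Mir433, about 1 kb upstream of Mir127 and opposite the same exon, was the next highest member. It had 3314 CPM in replicate 1 and 2814 in replicate 2 (3064 ± 353, SD, n = 2). Mir127 exceeded it 5.46-fold in replicate 1 and 6.14-fold in replicate 2. Both genes were higher in replicate 1.

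Mir431, the most upstream hairpin of the Rtl1 group, whose miRNA has been studied in mouse muscle stem cells, was lower again. It had 781 CPM in replicate 1 and 1210 in replicate 2 (996 ± 303, SD, n = 2). Replicate 2 was the higher library here, the reverse of Mir127 and Mir433.

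Mir434 and Mir136, downstream of Mir127, were the lowest of the group. Mir434 had 253 CPM in replicate 1 and 545 in replicate 2 (399 ± 206, SD, n = 2). Mir136 had 71.4 CPM in replicate 1 and 146 in replicate 2 (109 ± 52.8, SD, n = 2). Both were higher in replicate 2, and they moved together: Mir434 exceeded Mir136 3.54-fold in replicate 1 and 3.73-fold in replicate 2. Against them, Mir127 did not keep its ratio, exceeding Mir434 71.7-fold in replicate 1 and 31.7-fold in replicate 2.

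Upstream of Rtl1, Mir337 led with 1330 CPM in replicate 1 and 1694 in replicate 2 (1512 ± 257, SD, n = 2). Mir540 had 724 CPM in replicate 1 and 814 in replicate 2 (769 ± 63.5, SD, n = 2). Mir665, the next hairpin downstream, had only 50.2 CPM in replicate 1 and 56.7 in replicate 2 (53.5 ± 4.57, SD, n = 2). The order within this group was the same in both libraries, and all 3 had their higher CPM in replicate 2.

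In Rian, Mir341, known from rodents, had 515 CPM in replicate 1 and 357 in replicate 2 (436 ± 111, SD, n = 2). Mir370 had 68.1 CPM in replicate 1 and 104 in replicate 2 (85.8 ± 25.0, SD, n = 2). The Rian genes thus differed between the libraries in opposite directions.

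Ordered by mean CPM, the members ran Mir127, Mir433, Mir337, Mir431, Mir540, Mir341, Mir434, Mir136, Mir370 and Mir665. The ranges over both libraries did not overlap for 6 of the 9 pairs of neighbours in this order. They overlapped for Mir431 and Mir540, for Mir341 and Mir434, and for Mir136 and Mir370. These ranges set aside that both genes of a pair were counted in the same library, and they do not settle the order. Within the libraries, Mir431 was above Mir540 1.08-fold in replicate 1 and 1.49-fold in replicate 2. Mir136 was above Mir370 1.05-fold and 1.41-fold, and 2 animals do not settle such small differences. Of all 45 pairs of members, 44 kept their order in both libraries. The exception was Mir341 and Mir434: Mir341 stood at 2.04 times the counts of Mir434 in replicate 1 and at 0.656 times in replicate 2.

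The question whether the libraries differed at these genes was addressed by a two-sided exact binomial test per gene. It covered the 389 miRNA genes whose mean count was at least 10. P-values were adjusted over all 389 by the Benjamini-Hochberg method. All 10 members passed that filter on low counts, each with more than 100 counts in both libraries. The test compares the reads of these libraries, not conditions, and with 1 library on each side no difference has a replicate check. Log2 ratios put replicate 1 over replicate 2. They were scaled by TMM after 0.5 counts were added to both sides, and the SE beside them is that of counting.

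In replicate 1, Mir127, Mir433 and Mir341 were called higher and Mir337, Mir431, Mir434, Mir136 and Mir370 lower, while Mir540 and Mir665 passed in neither direction. These are 8 of 10 members, against a background of 59.1% of all genes tested. The 3 higher members stand against 30.8% of all genes, and the 5 lower ones against 28.3%. The counts are set beside those shares with no test of the difference, and nothing particular to the members is read from them. With the erythroid list left out of the estimate of DESeq2 size factors, 8 members were called, 3 higher and 5 lower, against 236 of all 389 genes tested. After TMM scaling all 10 members differed less than 2-fold between the libraries, as did 85.6% of all genes tested, while by total counts Mir434 (log2 ratio -1.11) and Mir136 (-1.03) went past it.

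**Figure D2:**
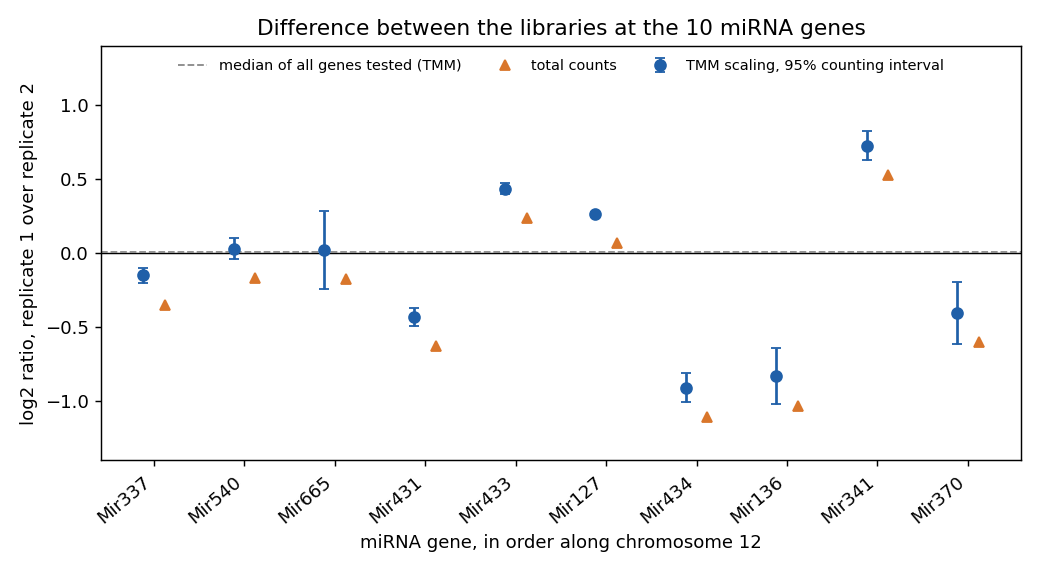
Log2 ratio of replicate 1 over replicate 2 at each gene, with circles and 95% counting intervals for TMM scaling and triangles for total counts. Mir433, Mir127 and Mir341 lie above 0 under both scalings, Mir434 and Mir136 lie lowest, and Mir540 and Mir665 turn from just above 0 to below it under total counts.

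Among the members called higher in replicate 1, Mir341 had the largest log2 ratio, 0.73 (SE 0.05, adjusted p = 7.57e-51, exact binomial test). Mir433 followed at 0.43 (SE 0.02, adjusted p = 3.13e-129, exact binomial test). The log2 ratio of Mir127 was 0.27 (SE 0.01, adjusted p = 1.78e-279, exact binomial test). Its p was the lowest of the members at a smaller difference than those of Mir341 and Mir433, with more counts than either.

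Among those called lower in replicate 1, Mir434 had a log2 ratio of -0.91 (SE 0.05, adjusted p = 2.75e-71, exact binomial test). Mir136 had -0.83 (SE 0.10, adjusted p = 2.85e-17, exact binomial test). Mir431 had a log2 ratio of -0.43, Mir370 one of -0.40 and Mir337 one of -0.15. Mir540 had 0.03 (SE 0.04, adjusted p = 0.506, exact binomial test) and Mir665 had 0.02 (SE 0.13, adjusted p = 0.942, exact binomial test), and neither passed under TMM scaling.

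The Rtl1 group therefore held both directions within 4.94 kb, with 2 genes called higher and 3 lower in replicate 1. Of all genes tested, 30.8% were called higher and 28.3% lower, and nothing particular to the group is read from its counts. Ratios between members of the group do not depend on the scaling of the libraries. Mir433 exceeded Mir434 13.1-fold in replicate 1 and 5.17-fold in replicate 2. Their ratio thus differed 2.54-fold between the libraries. The log2 ratio of Mir434 minus that of Mir127 was -1.17, and that of Mir136 minus that of Mir127 was -1.10. Mir431, at the other end of the group, gave -0.70 against Mir127, so the middle genes Mir433 and Mir127 were higher and the outer genes lower in replicate 1.

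The scaling mattered for the smaller ratios. Against total counts, TMM scaling raised every log2 ratio by 0.20. Most of the ratio of Mir127 came with that shift. It was 0.07 by total counts (adjusted p = 2.00e-18, exact binomial test), where TMM gave 0.27, and was called higher under both. The SE of counting leaves out this dependence on the scaling. Without TMM scaling, Mir540 was called lower in replicate 1, at a log2 ratio of -0.17 (adjusted p = 5.76e-06, exact binomial test), where TMM gave 0.03. Its call therefore depended on the scaling. Mir665 had -0.18 (adjusted p = 0.268, exact binomial test), which did not pass. The same 3 members were higher under total counts, and 6 were lower, against 21.9% and 43.7% of all genes tested. When the spread between the libraries was estimated from these same libraries, as a common dispersion in edgeR, the calls were lost. The exact test of edgeR with that dispersion called 0 members, against 1.03% of all genes tested, and 0 members had an unadjusted p under 0.05 in it, with a lowest of 0.230. The biological coefficient of variation behind that dispersion was 0.361. By the exact binomial test with TMM sizes, the differences at the 8 called members were larger than counting error. That test takes the sizes as exact and each read as independent. The common dispersion was estimated from the same differences that the edgeR test compares, so only genes far outside the common spread can pass. The members lay within that spread, and whether they differ between animals was not decided by the loss of the calls.

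**Figure D3:**
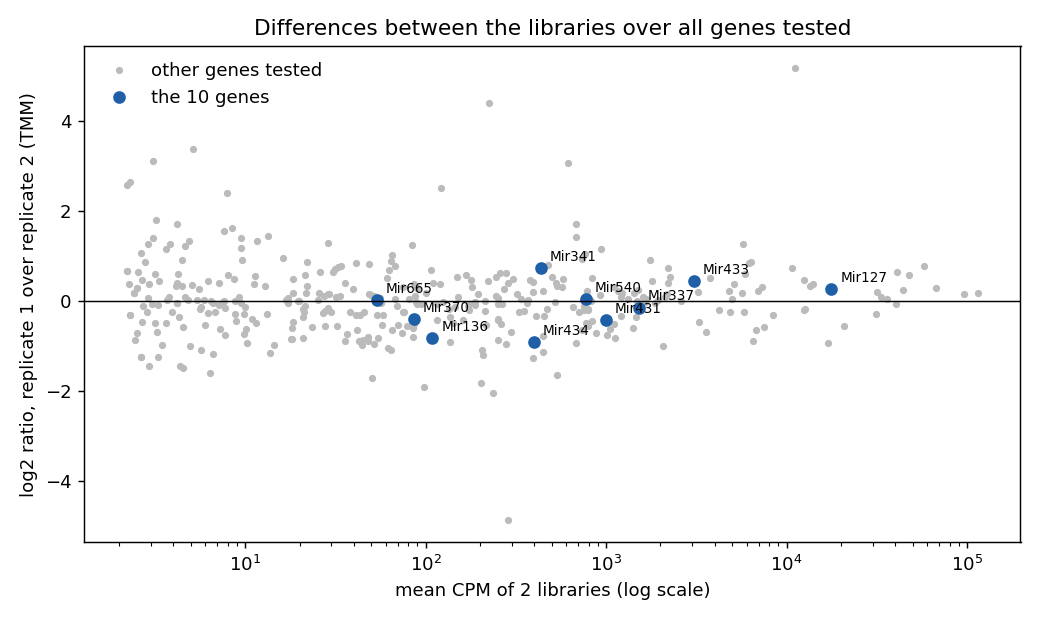
Log2 ratio of replicate 1 over replicate 2 after TMM scaling against mean CPM on a log axis for all 389 genes tested, with the 10 genes marked by name. All members lie between -0.91 and 0.73, inside the cloud of the other genes, whose ratios run from -4.86 to 5.16.

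The median log2 ratio was -0.06 over the 10 members, beside 0.01 over all genes tested and -0.29 over the 32 tested genes of the Mir379 to Mir410 cluster. In that cluster 6 genes were called higher and 16 lower in replicate 1, against 30.8% and 28.3% of all genes tested. The difference between the members and the cluster was not tested, since a single group of 2 libraries allows no such test.

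Within the region from Meg3 to Mir410, which holds 65 annotated miRNA genes, the 10 members took 46.0% of the counts in replicate 1, with a 95% Clopper-Pearson interval of 45.8% to 46.2%. In replicate 2 they took 44.8%, with an interval of 44.6% to 45.0%. The 43 genes of the Mir379 to Mir410 cluster took 52.3% in replicate 1 and 53.8% in replicate 2. Reads with more than 1 alignment are left out of these counts, and 7 of the 43 cluster hairpins share 18 bases with another counted gene, against no member. The effect of this on the shares was not tested. The highest members of that cluster were Mir379 with 6177 ± 1889 CPM, Mir411 with 5802 ± 1249 CPM and Mir541 with 5114 ± 439 CPM (SD, n = 2 each). Mir127 exceeded each of them in both libraries, while Mir433 was below all 3 in both.

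**Figure D4:**
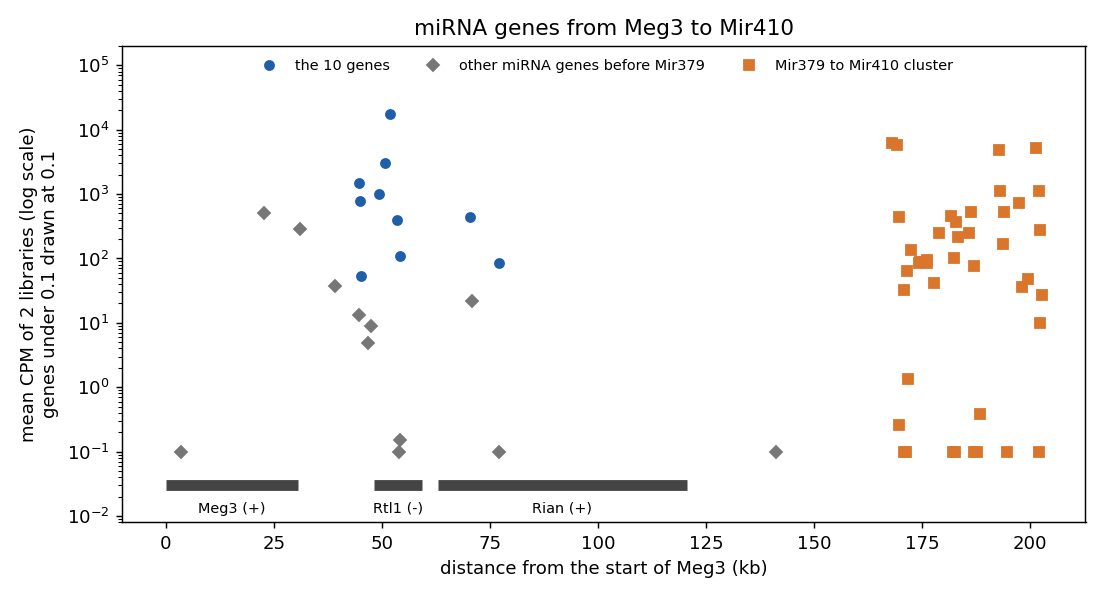
Mean CPM of both libraries on a log axis against distance from the start of Meg3 in kb, for the 10 genes, the 12 other annotated miRNA genes before Mir379, and the Mir379 to Mir410 cluster. Bars mark Meg3, Rtl1 and Rian with their strands, and the members peak at Mir127, opposite Rtl1.

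The 12 other miRNA genes annotated from Meg3 to Mir379 were much lower, with 872 ± 96.5 CPM in sum (SD, n = 2), and 7 of them were detected. Mir770, in Meg3, led them with 557 CPM in replicate 1 and 443 in replicate 2. Mir673 came next with 305 and 267 CPM. Mir493, Mir1188, Mir3544, Mir3070b and Mir3070a followed between 4.52 and 43.8 CPM. Mir432, opposite Rtl1 between Mir434 and Mir136, had a count of 0 in both libraries.

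The genes nearest to Mir127 in level over the 2 libraries, by Euclidean distance of log2(CPM + 1) and outside the members, were Mir10b (distance 0.47), Mir652 (0.57), Mir26b (0.64) and Mirlet7e (0.72). Mir10b had 14898 CPM in replicate 1 and 13295 in replicate 2. With 2 libraries this likeness is one of level alone.

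The counts of Mir337 and Mir136 depended on the strand. Each overlaps a miRNA gene annotated on the minus strand, Mir3544 at chr12:109585813-109585873 and Mir3071 at chr12:109595318-109595397. The hairpins of Mir136 and Mir3071 are shown with their mature arms in capitals, since they are read from opposite strands of the same bases.
Mir136 hairpin: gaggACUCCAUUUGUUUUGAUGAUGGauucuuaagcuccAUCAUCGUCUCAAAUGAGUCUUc
Mir3071 hairpin: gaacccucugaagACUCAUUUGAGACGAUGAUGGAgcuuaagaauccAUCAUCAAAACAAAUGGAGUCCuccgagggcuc

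On its own strand Mir136 had 411 counts in replicate 1 and 487 in replicate 2, and Mir3071 had 0 and 1 on its strand. In the unstranded column both genes had 0 counts. Mir337 had 7653 counts on its own strand in replicate 1 and 5648 in replicate 2 and 41 and 14 in the unstranded column, which are as many as its opposite-strand reads not counted at Mir3544. The opposite-strand column of Mir3544 held 7653 and 5648 reads, as many as the own-strand counts of Mir337. The remaining 8 members lost no counts there.

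Reads on the opposite strand were rare elsewhere among the members. At Mir127, 2 reads in replicate 1 and 3 in replicate 2 lay on the strand of Rtl1, a share of at most 0.0069% and 0.015% by the upper Clopper-Pearson bounds. Mir337 had 104 opposite reads in replicate 1 and 65 in replicate 2, or 1.34% and 1.14% of its reads. Of these, 63 and 51 were counted at Mir3544, which stood at 11.0 CPM in replicate 1 and 15.3 in replicate 2. In both libraries the strand of the listed gene thus carried nearly all reads at each of the 10 members.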

How the data were processed

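The authors sequenced small RNA under 30 nt from adrenal total RNA and made 1 library for each animal, per the labels. Their deposited tables give raw counts of reads per miRNA gene on mm10 with GENCODE M21, per the files that describe them, in columns for either strand, the gene's strand and the opposite strand, roles read from the values. Aligner and adapter trimming: not given in the sources used here. Rows naming no gene (66.2% of reads in replicate 1, 69.0% in replicate 2) were left out. The gene-strand column was used, and CPM were computed over its total. edgeR's quasi-likelihood test needs more than 1 library a side, so an exact binomial test with TMM effective sizes was run across all genes. A trial on simulated counts used total counts in place of TMM sizes and held counting error only. It says nothing about the TMM sizes or about spread between animals. Alternatives covered other denominators, scalings (total counts, DESeq2), filters, pseudocounts, the unstranded column, edgeR's exact test and single libraries. The members and lists were chosen with earlier results of these data known. All members were named, and other genes by fixed rules: the detected genes between Meg3 and Mir379, the 3 highest of the distal cluster and the 4 nearest to Mir127. Mir432 and Mir3071 were chosen later, with their values known. Tools were edgeR 4.0.16 and DESeq2 1.42.0 in R 4.3.3, and pandas 2.3.3, SciPy 1.17.1, NumPy 2.4.6 and matplotlib 3.10.9 in Python 3.11.15.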

Additional observations from a re-analysis of the deposited data

Results flagged for a closer look

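Mir337 had reads in the column for the strand opposite to its own, which was not used for its level: 104 in replicate 1 and 65 in replicate 2, above the 3 counts that a count of 0 allows. Of these, 63 and 51 were counted at Mir3544 on that strand. The other 41 and 14 reads were not counted at Mir3544, and their number equals the counts of Mir337 in the unstranded column.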

How the results depend on the processing

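The direction and call of each member held with DESeq2 size factors and with 1 count added in place of 0.5. By total counts Mir540 turned to a log2 ratio of -0.17 (called) and Mir665 to -0.18 (not called), and the members' median was -0.26 in place of -0.06. The summed level of 25119 CPM became 27945 with unstranded counts, 11972 over all aligned reads, 8145 over all reads, 59725 without the 10 most abundant genes and 25425 without the erythroid list in the total; its SD over only 2 libraries was small, so each counts as a move. With unstranded counts 9 members were tested and 6 were called, against 217 of all 362 genes tested. Of the members, 3 were lower in replicate 1, not 5, since Mir136 had no counts there and Mir337 had 41 and 14, as many as its opposite-strand reads outside Mir3544. The edgeR exact test with a common dispersion and a required log2 ratio of 1 each left 0 members called, 0 higher and 0 lower. Of all 389 genes tested they left 4 and 50 called. A TMM estimate without the region, other filters on low counts and, added after seeing the data, DESeq2 factors without the erythroid list kept the counts at 8 called, 3 higher and 5 lower. Over all genes tested, 234 of 389 were called without the region and 236 of 389 without the erythroid list. With the filters, 233 of 750 and 199 of 259 were called. Leaving out a library gave 25028 to 25210 CPM for the sum, 31.7 to 71.7 for Mir127 over Mir434, and 44.8% to 46.0% for the share of the region. The ratio of Mir127 to Mir434 thus depended on the library. With 1 library for each animal, animal and library cannot be told apart. No paired analysis was possible because the series has 1 group. Depth limits Mir665 most, with 289 counts in replicate 1 and 189 in replicate 2.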
